A study of Mus musculus with 8 samples.

Results

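Chromatin remodelling ATPases outside the SWI/SNF class were examined in RFB, a line of mouse kidney cells whose label calls them fibroblasts. The genes were the 10 rows of the deposited table whose symbol is Chd1, Chd3, Chd4, Chd7, Chd8, Smarca1, Smarca5, Ino80, Hells or Atrx, of 22274 genes in all, and each symbol matched 1 row. They were chosen as a gene family, not by a measured value. Earlier results of these data were known when the genes, partner lists and tests were chosen. RNA sequencing gave read counts for 8 libraries, 4 of cells given an adenovirus labelled Cre (ad-CRE) and 4 of cells given an adenovirus labelled GFP (ad-GFP), and both groups received TGF-β, which drives matrix production in fibroblasts. Cre is the recombinase that removes DNA between loxP sites, and GFP is a fluorescent protein that serves as the viral control. The title names Suv39h1, a histone H3K9 methyltransferase, as the target, and the design text calls the cells a knock-down of it, but the labels describe no loxP allele. Nothing tells if replicates came from separate cultures, so p-values here cover only library-to-library spread, which may be technical.

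Remodelling ATPases spend the energy of ATP to slide, space, evict or exchange nucleosomes, and each family works through its own partner subunits. The CHD proteins carry chromodomains, which can bind methylated histone tails, and CHD3 and CHD4 are the motors of the NuRD deacetylase complex. ISWI ATPases space nucleosomes, INO80 acts at the histone variant H2A.Z, HELLS is needed for normal DNA methylation and ATRX works with DAXX to deposit histone H3.3 in repeat-rich chromatin.

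All 10 genes passed the filter on low counts and all 10 passed the test, against 73.1% of the 13702 genes tested, so that a call by itself sets few genes apart in these libraries. Higher in ad-CRE were 4 genes, Smarca1, Chd7, Atrx and Chd8, against a background of 36.8% of genes called higher. Lower in ad-CRE were 6 genes, Hells, Smarca5, Chd1, Chd3, Ino80 and Chd4, against a background of 36.3% called lower. The ad-CRE and ad-GFP libraries did not overlap in any of the 10, which held for 66.2% of genes tested. Only the changes of Smarca1 and Hells reached 1 log2 unit, which 14.3% of genes tested reached with a call, and the other 8 lay within 0.5 log2 units of no change. The median size of the change was 0.36 log2 units over the 10 genes and 0.32 over all genes tested. The test was edgeR's quasi-likelihood test on counts with Benjamini-Hochberg adjustment over all genes tested and a threshold of 0.05, and every adjusted p below comes from it unless another test is named.

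**Figure D1:**
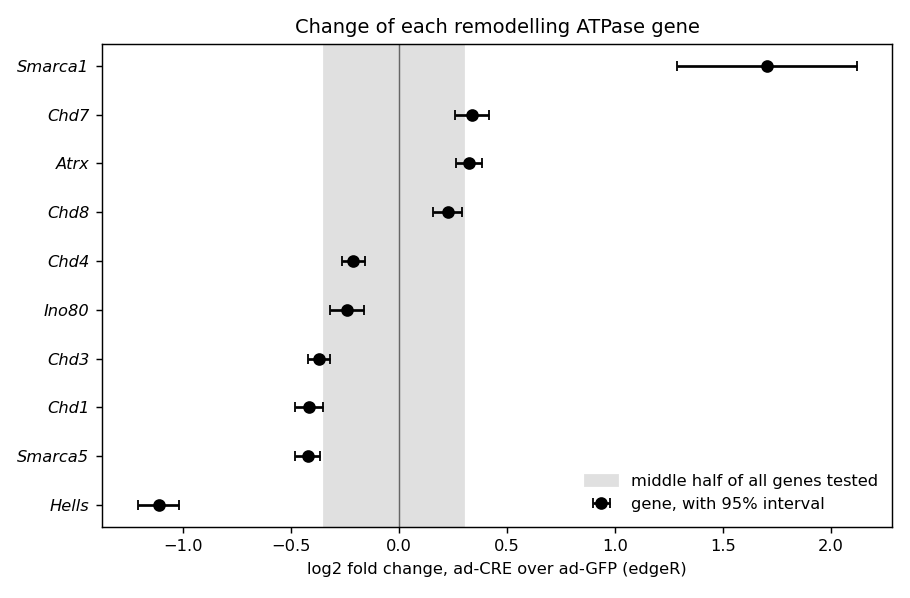
The log2 fold change of each gene, ad-CRE over ad-GFP, with its 95% interval, is drawn on a log2 axis, and the grey band spans the middle 50% of all genes tested, −0.346 to 0.302. Smarca1 and Hells lie far outside the band on opposite sides, while Chd8, Chd4 and Ino80 lie inside it.

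Total counts were 17572152 to 22297598 in the ad-CRE and 15998257 to 20920828 in the ad-GFP libraries. Suv39h1 was lower in ad-CRE, at 32.5 ± 0.795 CPM in ad-CRE and 41.5 ± 3.16 CPM in ad-GFP (SD, n = 4 each, with CPM the read counts scaled by library size), a log2 fold change of −0.35 (SE 0.053, adjusted p = 8.65e-07). Of the SWI/SNF ATPases, Smarca4 (BRG1) had a far larger fall, with 34.3 ± 3.2 CPM in ad-CRE and 288 ± 11.1 CPM in ad-GFP (SD, n = 4 each) and a log2 fold change of −3.07. Smarca2 (BRM) did not pass, with −0.02 (SE 0.048, adjusted p = 0.753). The ad-CRE level was 78.5% of the ad-GFP level for Suv39h1 and 11.9% for Smarca4. The change of Suv39h1 was larger than that of 53.0% of genes tested, and that of Smarca4 larger than 98.6%. It is uncertain which gene Cre acted on in these cells. Every difference given here is therefore one between the libraries labelled ad-CRE and ad-GFP, and is not tied to the loss of a named gene. Mitochondrial genes took 7.20% to 7.42% of counts in ad-CRE and 6.46% to 6.60% in ad-GFP, and 15911 to 16169 genes were detected in ad-CRE and 16359 to 16648 in ad-GFP, both without overlap. Cell markers differed between the groups too, where 36.8% of all genes tested were called higher and 36.3% lower. Fibroblast markers summed to 783 to 841 CPM in ad-CRE and 1846 to 1938 CPM in ad-GFP, with 1 of 10 tested called higher and 9 lower. Most of this sum came from Vim, at 693 CPM in ad-CRE and 1614 CPM in ad-GFP. Lum, a fibroblast proteoglycan gene, had 1 read in ad-CRE and 0 in ad-GFP. Tubular epithelial markers summed to 4178 to 4289 CPM in ad-CRE and 2291 to 2472 CPM in ad-GFP, with 7 of 13 tested called higher and 5 lower, and Aqp2 had 0 reads in every library. The median log2 fold change of this list was only 0.12, and its sum is carried by the epithelial genes Krt8 (1983 CPM in ad-CRE and 745 CPM in ad-GFP), Krt18 (957 CPM in ad-CRE and 459 CPM in ad-GFP) and Cdh1 (484 CPM in ad-CRE and 204 CPM in ad-GFP). Havcr1, Cdh16, Lrp2, Cubn and Slc12a1 fell. In every library the tubular epithelial sum exceeded the fibroblast sum, although the label calls the cells fibroblasts. The identity of the cells was not tested. Endothelial markers summed to 93.2 to 102 CPM in ad-CRE and 218 to 234 CPM in ad-GFP, and 10 of 10 tested were called lower. Leukocyte markers summed to 197 to 208 CPM in ad-CRE and 275 to 312 CPM in ad-GFP, with 7 of 8 tested called lower, and Cd3e had 0 reads in every library. In such bulk libraries fewer cells of a type and less RNA per cell cannot be told apart, and the part of these markers, the mitochondrial share and the genes detected in the changes below was not tested.

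The ISWI pair moved in opposite directions. Smarca5 encodes SNF2H, the ISWI ATPase of most cells, and Smarca1 encodes SNF2L, its close relative best known from brain and gonads. Smarca5 (ENSMUSG00000031715, protein-coding, minus strand of GRCm38 chromosome 8, 80698507 to 80739497) had 193, 189, 189 and 201 CPM in ad-CRE replicates 1 to 4, against 255, 260, 265 and 255 CPM in ad-GFP replicates 1 to 4. Every ad-CRE library lay below every ad-GFP library, and the ad-CRE level was 74.5% of the ad-GFP level (log2 fold change −0.42, SE 0.028, adjusted p = 2.31e-14). Smarca1 (ENSMUSG00000031099, protein-coding, minus strand of chromosome X, 47809368 to 47892974) had 63, 77, 72 and 67 reads in ad-CRE replicates 1 to 4, against 22, 18, 16 and 23 reads in ad-GFP replicates 1 to 4. These counts are 2.85 to 4.01 CPM in ad-CRE and 0.919 to 1.43 CPM in ad-GFP. The gene thus rose 3.26-fold in ad-CRE, with a log2 fold change of 1.70 (SE 0.20, 95% interval 1.29 to 2.12, adjusted p = 1.01e-08), but it stayed the least abundant of the 10 in both groups. Its change is larger than that of 94.6% of genes tested, whereas its FPKM is above that of only 8.77% of them.

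The promoters of this pair are shown because the genes moved apart. The bases are the 250 upstream of the RefSeq start (build GRCm38.p6, both genes on the minus strand, printed in the direction of transcription), and capitals mark CG pairs. The Smarca5 window is chr8:80739460-80739709 and the Smarca1 window is chrX:47892614-47892863.
Smarca5: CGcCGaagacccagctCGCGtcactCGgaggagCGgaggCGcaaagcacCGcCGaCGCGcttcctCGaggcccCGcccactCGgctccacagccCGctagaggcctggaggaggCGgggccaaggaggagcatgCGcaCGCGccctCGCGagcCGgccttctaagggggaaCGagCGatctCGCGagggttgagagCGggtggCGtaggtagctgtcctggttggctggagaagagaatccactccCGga
Smarca1: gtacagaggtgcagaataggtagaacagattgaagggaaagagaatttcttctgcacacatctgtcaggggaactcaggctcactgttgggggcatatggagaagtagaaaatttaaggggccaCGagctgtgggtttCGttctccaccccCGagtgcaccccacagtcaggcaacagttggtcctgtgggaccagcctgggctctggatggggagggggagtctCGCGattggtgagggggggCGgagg
The Smarca5 window holds 29 CG pairs and the Smarca1 window 6. Of the 32851 promoter windows of this length in the RefSeq table, 93.2% hold fewer than 29 and 49.6% hold fewer than 6. GENCODE places the outer end of Smarca1 361 bases further upstream than the RefSeq start, so that the Smarca1 window lies inside the gene as GENCODE draws it, and for Smarca5 the distance is 38 bases. Of the other genes with a window, Atrx held 6 and Chd8 20 CG pairs, and both genes rose. Hells and Ino80 held 28 each and the windows of Chd4 12 and 23, and these genes fell. A link of CG content to direction was not tested. No measurement of methylation or binding at these windows was used here.

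In the Smarca1 to Smarca5 ratio the groups stood apart. The log2 ratio of their read counts was −5.79 ± 0.22 in ad-CRE and −7.93 ± 0.32 in ad-GFP (SD, n = 4 each). The ratio was higher in ad-CRE by 2.14 (SE 0.19), and no ad-CRE library overlapped an ad-GFP library (exact two-sided permutation test over libraries, p = 0.0286, adjusted over 3 pairs of relatives p = 0.0429). The smallest p that 4 against 4 libraries allow is 0.0286, and a permutation of the pairs of the same replicate number gives an adjusted p = 0.125, the smallest it allows. Per length, Smarca5 still exceeded Smarca1 by a wide margin, 36.2-fold in ad-CRE and 164-fold in ad-GFP by mean deposited FPKM. The difference in the log2 ratio of FPKM was 2.23 and did not pass once adjusted over the 3 pairs (exact permutation test, adjusted p = 0.0857), although the groups did not overlap there. Of the 50-base words in Smarca5 transcripts, 28.2% also occur in transcripts of other genes, 17.6% in Gm13135, so that the handling of shared reads, of which the sources used here say nothing, could touch its count. Smarca1 shares none.

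**Figure D2:**
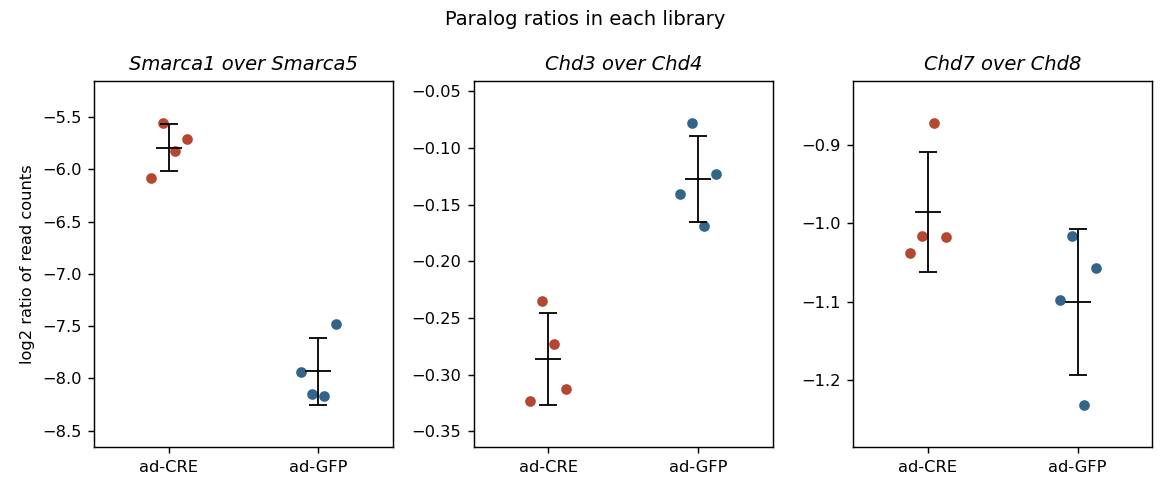
Each point is the log2 ratio of the read counts of 2 related genes in 1 library, ad-CRE at the left and ad-GFP at the right, with the mean and SD (n = 4 each) in black. Smarca1 over Smarca5 is higher in ad-CRE, Chd3 over Chd4 is lower, and Chd7 over Chd8 overlaps between groups. The 3 panels have their own axes.

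The partners that steer the ISWI ATPases moved in both directions. Among 12 partner genes tested there were 5 that rose, 5 that fell and 2 that missed the threshold. Over all genes tested 36.8% were called higher and 36.3% lower. The median log2 fold change of the partners was 0.09, against 0.00 over all genes tested. Baz1b, whose product forms the WICH complex with SNF2H, had the smallest p and a log2 fold change of −0.83 (adjusted p = 1.97e-21), with 164 CPM in ad-CRE and 292 CPM in ad-GFP. Baz1a, which forms ACF with SNF2H, fell by 0.60 on the log2 scale, and the histone chaperone gene Rbbp4 fell by 0.63. Baz2a, the NoRC subunit that directs SNF2H to ribosomal DNA, rose by 0.62, at 197 CPM in ad-CRE and 128 CPM in ad-GFP (adjusted p = 3.24e-17). Bptf, the large subunit of NURF that works with SNF2L, rose by 0.26, and Rsf1, another SNF2H partner, rose by 0.34. Chrac1 and Baz2b did not pass, with 0.11 (adjusted p = 0.285) and 0.07 (adjusted p = 0.0844).

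Hells had the largest fall of the 10. It encodes LSH, a remodeller that works with CDCA7 and helps DNA methyltransferases reach nucleosomal DNA, and it is typically high in dividing cells. Hells (ENSMUSG00000025001, chromosome 19, 38930915 to 38971051, plus strand, protein-coding) had 40.9, 38.9, 40.9 and 45.7 CPM in ad-CRE replicates 1 to 4, against 84.8, 95.1, 92.5 and 87.0 CPM in ad-GFP replicates 1 to 4. The highest ad-CRE library lay far below the lowest ad-GFP library, and the ad-CRE level was 46.2% of the ad-GFP level (log2 fold change −1.11, SE 0.047, adjusted p = 2.74e-19). The size of this change exceeds that of 87.9% of genes tested. Leaving out 1 library at a time gave −1.16 to −1.08. By deposited FPKM, Hells had 9.19 ± 0.828 in ad-CRE and 21.4 ± 2.01 in ad-GFP (SD, n = 4 each), so that it ranked seventh of the 10 in ad-GFP and eighth in ad-CRE, where it overlapped Ino80.

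The Hells promoter is shown because it holds a binding word of E2F, the factor family of S phase genes. The window is chr19:38930740-38930989 (GRCm38.p6, plus strand), the 250 bases upstream of the RefSeq start, and capitals mark the word.
Hells: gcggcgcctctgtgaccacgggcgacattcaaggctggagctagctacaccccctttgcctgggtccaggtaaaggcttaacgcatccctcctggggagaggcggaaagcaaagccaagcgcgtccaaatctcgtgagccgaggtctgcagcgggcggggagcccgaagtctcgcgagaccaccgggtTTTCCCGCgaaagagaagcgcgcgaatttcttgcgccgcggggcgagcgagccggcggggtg
The word TTTCCCGC begins 62 bases upstream of the RefSeq start. GENCODE places the start 75 bases upstream of that of RefSeq, so the word lies inside the gene as GENCODE draws it. The words searched for were TTTCCCGC, TTTCGCGC, TTTGCCGC and TTTGGCGC on both strands, and 1.86% of the 32851 windows hold at least 1. Promoter windows were found for 7 of the 10 genes, 8 windows in all, and Hells was the only one of the 7 with such a word. CCAAT occurred on either strand in windows of Atrx, Chd4, Chd8, Ino80 and Smarca1, and 33.8% of all windows hold it. ATGGCG, a core of the YY1 motif, was present on both strands in Chd8 and is held by 5.73% of windows. CCGGAAG (ETS), TTTGAA or TTCGAA (CHR) and TATAAA, held by 6.91%, 17.1% and 12.4% of windows, were in none of the 8. A match describes letters only and shows no binding.

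Genes of DNA replication and S phase moved with Hells. Among 22 tested there were 21 that fell and 0 that rose, against 36.3% of all genes tested called lower and 36.8% higher. Gins1 missed the threshold (−0.03, adjusted p = 0.870), and the median log2 fold change was −1.22, against 0.00 over all genes tested. Mcm6, a subunit of the replicative helicase, had −1.83, the cyclin gene Ccne2 −2.88 and Rrm1, a subunit of ribonucleotide reductase, −1.45. The list summed to 795 to 812 CPM in ad-CRE and 1821 to 1901 CPM in ad-GFP. Whether the fall of Hells is part of a difference in cycling cells was not tested. Of the 18 genes of this list with a promoter window, 4 hold one of the E2F words, Mcm5, Mcm6, Mcm7 and Cdc6, against 2.16% of all genes with a window. E2F is the factor family of such genes, and the words are the same whatever their expression, so this share cannot test its part here. The part of E2F in these falls was not tested.

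Atrx rose while Hells fell. ATRX is a large remodeller bound to heterochromatin and telomeric repeats, and its human gene is mutated in the ATR-X syndrome. Atrx (ENSMUSG00000031229, protein-coding, minus strand of chromosome X, 105797615 to 105929403) had 306, 309, 297 and 322 CPM in ad-CRE replicates 1 to 4, against 236, 241, 255 and 253 CPM in ad-GFP replicates 1 to 4. The groups did not overlap in CPM, and the ad-CRE level was 125% of the ad-GFP level (log2 fold change 0.32, SE 0.030, adjusted p = 3.95e-11). In deposited FPKM, with 43.3 to 49.6 in ad-CRE and 37.0 to 44.8 in ad-GFP, they did overlap, although the gene passed there too.

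The partners of HELLS and ATRX did not follow 1 direction. Among 10 tested there were 6 that fell, 2 that rose and 2 that missed the threshold, where 36.3% of all genes tested were called lower and 36.8% higher. The median log2 fold change of these partners was −0.47. Cdca7, which recruits HELLS to nucleosomes, fell by 0.84 on the log2 scale, at 17.4 CPM in ad-CRE and 31.3 CPM in ad-GFP (adjusted p = 1.78e-13). Dnmt1, which copies DNA methylation after replication, had −1.25 and Uhrf1, whose product recruits DNMT1, −1.06, close in size to Hells. Cdca7, Dnmt1 and Uhrf1 are the 3 genes of this list whose promoter window holds an E2F word, of 10 with a window. Of all genes with a window, 2.16% hold one. As for the S phase genes, such a share cannot test a part of E2F. A part of E2F in the falls of Cdca7, Dnmt1 and Uhrf1 was not tested. The de novo methyltransferase genes rose, Dnmt3a by 0.46 and Dnmt3b by 0.999, the second at only 7.88 CPM in ad-CRE and 3.96 CPM in ad-GFP. Daxx, the chaperone that acts with ATRX, fell by 0.65, at 42.4 CPM in ad-CRE and 66.5 CPM in ad-GFP (adjusted p = 5.31e-14), opposite to Atrx. Of the genes for histone H3.3, H3f3b fell by 0.54 and H3f3a did not pass (0.04, adjusted p = 0.207). Cbx5, encoding the heterochromatin protein HP1α, fell by 0.39.

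**Figure D3:**
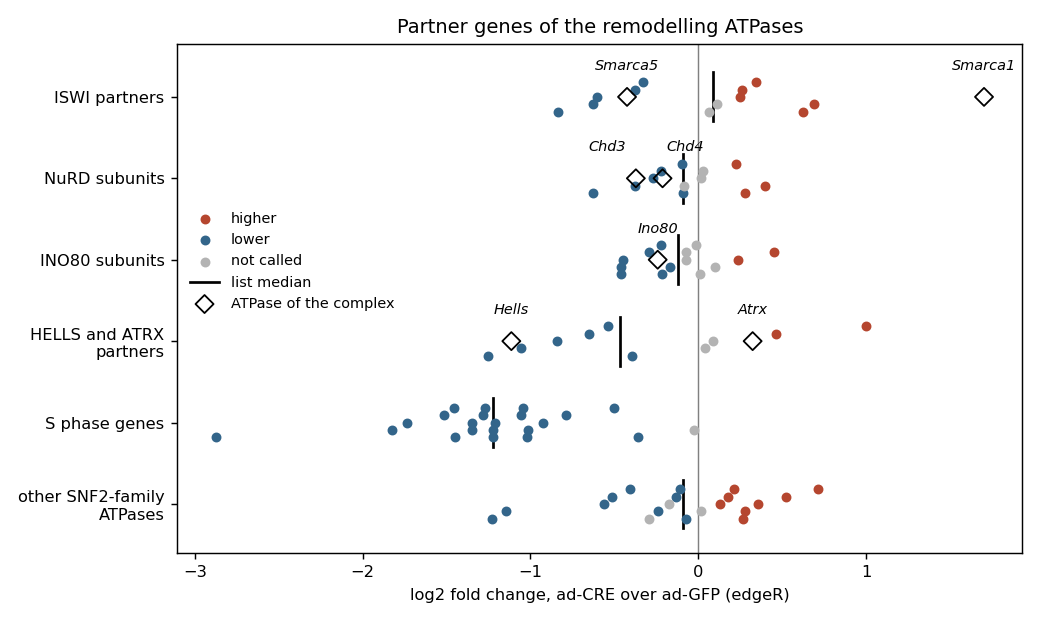
The log2 fold change of each partner gene, ad-CRE over ad-GFP, is drawn by list, coloured by call, with the list median as a black bar and the ATPase as an open diamond. S phase genes lie almost wholly below 0 around a median of −1.22, ISWI partners lie on both sides of 0, and Smarca1 lies above every partner of the ISWI list.

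The NuRD ATPases Chd3 and Chd4 were the most abundant of the 10 and both fell by small amounts. Chd3 (ENSMUSG00000018474, protein-coding, minus strand of chromosome 11, 69343273 to 69369406) had 365, 371, 367 and 378 CPM in ad-CRE replicates 1 to 4, against 472, 484, 470 and 489 CPM in ad-GFP replicates 1 to 4. Chd4 (ENSMUSG00000063870, chromosome 6, 125095981 to 125130591, plus strand, protein-coding) had 456, 436, 444 and 469 CPM in ad-CRE replicates 1 to 4, against 520, 511, 528 and 533 CPM in ad-GFP replicates 1 to 4. Neither gene overlapped between groups, and the libraries of a group differed by little, with an SD of 1.55% to 3.23% of the mean. The ad-CRE level was 77.3% of the ad-GFP level for Chd3 (log2 fold change −0.37, SE 0.024, adjusted p = 1.79e-14) and 86.3% for Chd4 (log2 fold change −0.21, SE 0.026, adjusted p = 1.27e-08).

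The fall of Chd3 was the larger of the pair in counts. The log2 ratio of Chd3 to Chd4 reads was −0.29 ± 0.040 in ad-CRE and −0.13 ± 0.038 in ad-GFP (SD, n = 4 each), a difference of −0.16 (SE 0.028), and the groups did not overlap (exact two-sided permutation test, p = 0.0286, adjusted over 3 pairs p = 0.0429). With deposited FPKM the difference was −0.06 and did not pass (exact permutation test, adjusted p = 0.214), so the result rests on the counts. With pairs of the same replicate number the adjusted p was 0.125. Which of the pair was more abundant also turned on the scale. Chd4 had more reads in every library, whereas Chd3 had the higher FPKM in every library, 96.5 ± 4.58 against 71.6 ± 1.95 for Chd4 in ad-CRE and 119 ± 3.28 against 84.8 ± 1.64 in ad-GFP (SD, n = 4 each). CPM divided by FPKM, which has the unit of a length in kb, was 3.67 to 3.95 for Chd3 in ad-CRE and 3.81 to 4.14 in ad-GFP, while the longest coding transcript in GENCODE has 7.26 kb. For Chd4 this quotient was 6.25 to 6.37 kb in ad-CRE and 6.06 to 6.25 kb in ad-GFP, near its longest coding transcript of 6.70 kb.

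Other NuRD subunits moved in both directions. Among 12 tested there were 3 that rose, 6 that fell and 3 that missed the threshold, where 73.1% of all genes tested were called. Their median log2 fold change was −0.09. The smallest p-values belonged to Rbbp4 (−0.63) and Rbbp7 (−0.38), histone-binding subunits that the ISWI list also holds, and to the deacetylase gene Hdac1, which rose by 0.28 (adjusted p = 4.55e-09). Mta3, an alternative NuRD scaffold gene, rose by 0.40, at 51.9 CPM in ad-CRE and 39.5 CPM in ad-GFP. Hdac2 and the NuRD scaffold gene Mta1 did not pass, with 0.03 (adjusted p = 0.511) and 0.02 (adjusted p = 0.663). Mbd3, which holds the complex together, did not pass (−0.09, adjusted p = 0.0813), and Mbd2, which binds methylated DNA, fell by 0.27.

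The remaining CHD genes split by direction. Chd1, which binds methylated H3K4 in human cells and acts at transcribed genes (ENSMUSG00000023852, chromosome 17, 15704967 to 15772610, plus strand), fell, with 142 to 154 CPM in ad-CRE and 190 to 208 CPM in ad-GFP (log2 fold change −0.42, SE 0.032, adjusted p = 6.34e-13). Chd7, whose human gene is mutated in CHARGE syndrome (ENSMUSG00000041235, chromosome 4, 8690406 to 8867659, plus strand), rose. It had 96.8, 93.7, 103 and 103 CPM in ad-CRE replicates 1 to 4, against 78.8, 80.0, 74.1 and 80.5 CPM in ad-GFP replicates 1 to 4 (log2 fold change 0.34, SE 0.039, adjusted p = 4.1e-09). Chd8, a regulator of β-catenin targets whose human gene is linked to autism (ENSMUSG00000053754, chromosome 14, 52198151 to 52257780, minus strand), also rose, with 199, 189, 189 and 208 CPM in ad-CRE replicates 1 to 4 and 169, 162, 174 and 168 CPM in ad-GFP replicates 1 to 4. All 3 genes are protein-coding, and none overlapped between groups in CPM.

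Chd8 is the call that depended on the unit. In counts its log2 fold change was 0.22 (SE 0.032, adjusted p = 3.49e-07). In deposited FPKM it had 29.3, 34.2, 32.1 and 38.2 in ad-CRE replicates 1 to 4, against 25.8, 26.2, 34.4 and 30.1 in ad-GFP replicates 1 to 4. There the groups overlapped, and the gene did not pass limma on log2(FPKM + 1), with 0.20 (adjusted p = 0.0888). CPM divided by FPKM ran from 5.05 to 6.77 kb over the 8 libraries, 1.34 times from lowest to highest. This spread is not particular to Chd8, with 1.35 times for Smarca1 and 1.24 times for Hells. Why the quotient differs between libraries was not tested. An antisense gene, Gm26590, shares 953 exonic bases with Chd8, and the sources used here do not state if counting used strand. In the Chd7 to Chd8 log2 ratio of reads, −0.99 ± 0.076 in ad-CRE and −1.10 ± 0.093 in ad-GFP (SD, n = 4 each), the groups overlapped and the difference of 0.11 (SE 0.060) did not pass (exact permutation test, p = 0.0857, adjusted p = 0.0857). It ran from 0.07 to 0.14 when 1 library was left out and passed without ad-GFP replicate 2 (adjusted p = 0.0286).

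Ino80 had the lowest mean FPKM of the 10 after Smarca1 in both groups. Its libraries overlapped those of Hells in ad-CRE and of Chd7 in ad-GFP. The gene encodes the ATPase of a complex that slides nucleosomes and acts in transcription, replication and DNA repair. Ino80 (ENSMUSG00000034154, protein-coding, minus strand of chromosome 2, 119373042 to 119477687) had 57.9, 59.0, 56.7 and 57.3 CPM in ad-CRE replicates 1 to 4, against 69.1, 69.6, 69.3 and 64.8 CPM in ad-GFP replicates 1 to 4. All ad-CRE libraries lay below the lowest ad-GFP library, replicate 4 (log2 fold change −0.24, SE 0.040, adjusted p = 2.89e-06). Among 14 other INO80 subunit genes tested there were 7 that fell, 2 that rose and 5 that missed the threshold. Over all genes tested 36.3% were called lower and 36.8% higher. The median log2 fold change of the subunit genes was −0.12. The helicase-like subunit gene Ruvbl2 fell by 0.46, Uchl5, a deubiquitinase subunit, by 0.46, and Ino80c by 0.45. Ruvbl1, whose product forms a ring with that of Ruvbl2, did not pass (−0.08, adjusted p = 0.145). Actr5, an actin-related subunit that INO80 needs to move nucleosomes, rose by 0.45 at a low level of 7.23 CPM in ad-CRE and 5.26 CPM in ad-GFP, and Actr8 did not pass (0.10, adjusted p = 0.176).

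**Figure D4:**
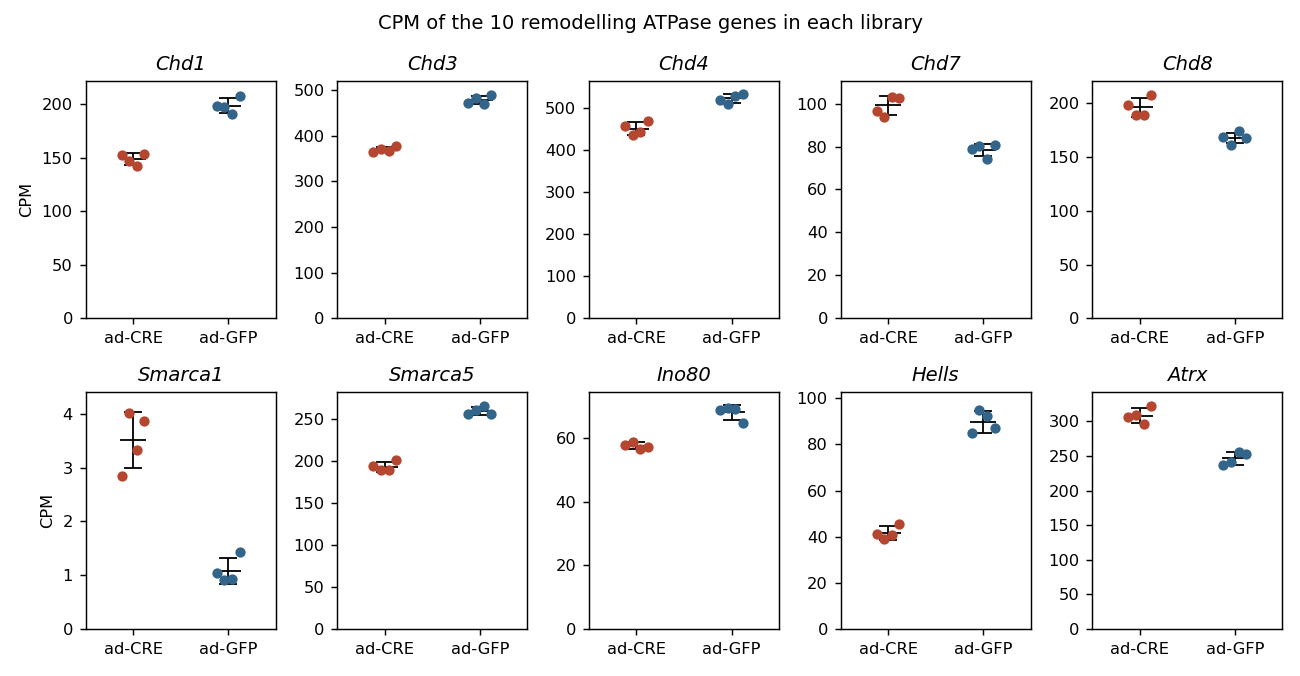
Each point is 1 library, with ad-CRE at the left and ad-GFP at the right of each panel, in CPM on an axis that starts at 0, with the mean and SD (n = 4 each) in black. The groups are separate in all 10 panels, widely so for Hells and Smarca1 and narrowly for Chd8, Chd4 and Ino80.

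Per length, the order of the 10 genes was similar at its ends and changed in the middle. By mean deposited FPKM, Chd3, Chd4, Atrx, Chd8, Smarca5, Chd1, Chd7, Hells, Ino80 and Smarca1 followed each other from high to low in ad-CRE. In ad-GFP the order was Chd3, Chd4, Smarca5, Atrx, Chd1, Chd8, Hells, Chd7, Ino80 and Smarca1. Neighbours whose libraries overlapped were Chd8 with Smarca5 and Hells with Ino80 in ad-CRE, and Smarca5 with Atrx, Chd1 with Chd8 and Chd7 with Ino80 in ad-GFP. Atrx averaged 47.2 ± 2.96 FPKM in ad-CRE and 40.0 ± 3.65 in ad-GFP, while Smarca5 averaged 31.3 ± 0.924 in ad-CRE and 42.7 ± 0.802 in ad-GFP (SD, n = 4 each), so that Atrx exceeded Smarca5 in each ad-CRE library. Smarca4, at 6.0 ± 0.562 FPKM in ad-CRE and 53.0 ± 2.06 in ad-GFP, would stand after Ino80 in ad-CRE and between Chd4 and Smarca5 in ad-GFP. The 10 genes together took 0.181% to 0.192% of counts in ad-CRE and 0.211% to 0.215% in ad-GFP, with no overlap, and most of that total comes from Chd3, Chd4, Atrx, Smarca5 and Chd8.

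**Figure D5:**
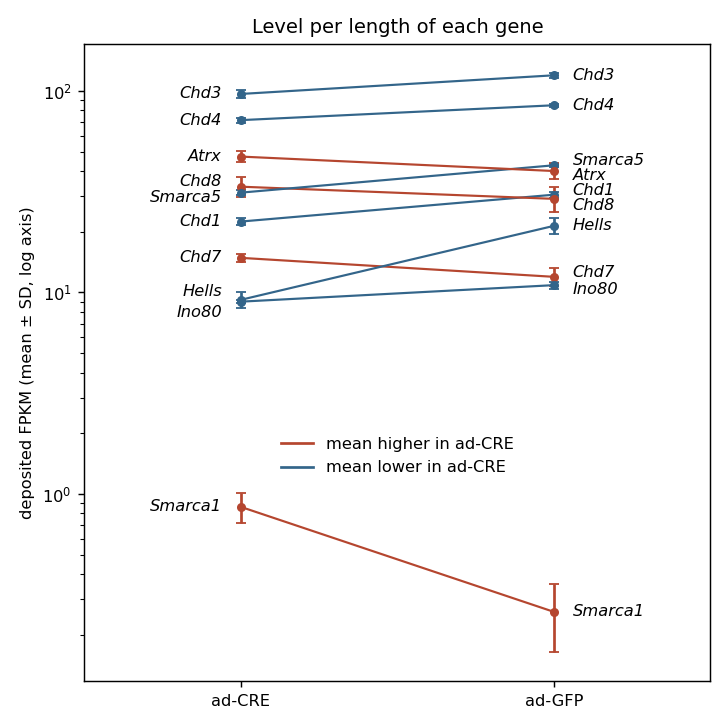
The mean deposited FPKM of each gene with its SD (n = 4 each) is drawn on a log axis, ad-CRE at the left and ad-GFP at the right, red where the mean is higher in ad-CRE and blue where it is lower. Chd3 and Chd4 stay on top and Smarca1 at the bottom. The lines of Hells and Chd7, of Smarca5 with Atrx and Chd8, and of Chd1 and Chd8 cross.

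Of the 20 other ATPases of the SNF2 family outside SWI/SNF, 8 rose, 9 fell and 3 missed the threshold. Over all genes tested 36.8% were called higher and 36.3% lower. The median log2 fold change of the 20 was −0.09. On the FPKM scale only 5 of them rose. Chd2, the closest relative of Chd1, fell by 0.56, at 119 CPM in ad-CRE and 175 CPM in ad-GFP (adjusted p = 6.74e-17), the same direction as Chd1. Ercc6l, encoding the mitotic helicase PICH, had −1.23, at 11.8 CPM in ad-CRE and 27.6 CPM in ad-GFP, close in size to Hells. Hltf, a fork-remodelling translocase, rose by 0.72, at 57.6 CPM in ad-CRE and 34.95 CPM in ad-GFP. Chd6 and Chd9, of the same CHD subfamily as Chd7 and Chd8, rose by 0.35 and 0.28, so that these 4 genes all rose, though their common direction was noticed after the values were seen. The H2A.Z exchanger Srcap did not pass (0.01, adjusted p = 0.701).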

How the data were processed

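RNA was extracted and libraries were made with a SMARTer kit, per the labels' protocols. Builds listed in the submitters' processing notes are GRCm38 and mm10. Aligner, counting tool and annotation were not given in the sources used here. The authors deposited read counts per gene as whole numbers and FPKM values per library. They also deposited a log2 fold change, a p-value and an FDR, none of which was used in a test. FPKM served for levels between genes and for alternatives.

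Counts were fitted in R 4.3.3 with edgeR 4.0.16 (filterByExpr, TMM factors, glmQLFit, glmQLFTest, group as the only term). DESeq2 1.42.0 and limma 3.58.1 were alternatives. CPM values were scaled with the TMM factors. An SE is the size of the log2 fold change over the square root of F. Relatives were compared by exact permutation of the per-library log2 ratio of reads. The scripts were tested on simulated counts. Between replicates, the chi-square of counts over its degrees of freedom was 1.70 to 3.15, above sampling noise. Coordinates are from GENCODE M21, which held 22219 (99.75%) of the IDs, and promoter sequences from RefSeq (GRCm38.p6). The genes, partner lists and tests were chosen with earlier results of these data known. Named partners are those with the 3 smallest p-values of a list and those that act with a gene examined. Others, such as Chd6, Chd9, Srcap and Gins1, were named outside this rule, Chd6 and Chd9 after their values were seen. Figures were drawn with matplotlib 3.10.9.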

Additional observations from a re-analysis of the deposited data

Results flagged for a closer look

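In groups of 4 libraries a value was listed when its gap to the nearest library, over the group's range, exceeded Dixon's 95% critical value. Of 58 groups examined 2 were listed, fewer than the 1 in 20 that chance gives. Ino80 was lower in ad-GFP replicate 4, at 64.8 CPM, than in the other ad-GFP libraries, the nearest at 69.1 CPM. The Chd7 to Chd8 log2 ratio was higher in ad-CRE replicate 3, at −0.87, than in the other ad-CRE libraries, the nearest at −1.02.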

How the results depend on the processing

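The log2 fold changes of the 10 genes kept their direction in all 169 values under the alternatives and their call in 167. The 2 others are Chd8 on log2(FPKM + 1) and log2(FPKM + 0.1), each with 0.20 (limma adjusted p = 0.0888 and 0.0855), and the cause was not tested. Smarca1 had no value with the filter of 5 CPM in 4 libraries, which removes it, and 0.56 on log2(FPKM + 1), where the added 1 shrinks low genes. Counts of genes called ran from 4210 to 5346 higher and 4156 to 5419 lower, and the median over all genes moved to −0.03 when only total counts set the scale. Chd3 over Chd4 no longer passed with FPKM (−0.06307), and Smarca1 over Smarca5 did not either (2.229, exact permutation adjusted p = 0.0857). Same-numbered libraries did not deviate together (correlations −0.0632 to 0.0662). With a replicate block 5011 genes were called higher and 4952 lower. The paired ratios were then 2.14 and −0.16 for these pairs, not past the threshold because 16 sign changes cannot pass it. Chd7 over Chd8 ran from 0.0713 to 0.1432 without 1 library. Smarca2, never called, had 0.02922 on log2(FPKM + 1), 0.03017 on log2(FPKM + 0.1) and −0.04886 to 0.01201 without 1 library. Other SNF2-family ATPases called higher numbered 5 on both FPKM scales. The fibroblast marker called higher, Pdgfra, was not called with the 5 CPM filter, on either FPKM scale or at a threshold of 0.01 (0 called higher), and 0 to 1 were called without 1 library, 0 without ad-GFP replicate 3 or ad-CRE replicate 3. List medians moved beyond the spread between libraries in 24 of 170 values and changed sign in 0. Depth limits Smarca1 most, with 279 reads in ad-CRE and 79 in ad-GFP.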
